A study of Mus musculus with 12 samples.

Results

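Immediate early genes and heat shock genes were followed in leukaemia stem cells of G3 Terc-/- and WT mice, as 34 named genes of which 24 belong to the early response and 10 encode chaperones. Members were taken by symbol, old or current, from the platform annotation of the array. All 34 had a probe, and 31 were measured above background, against 11889 measured genes of 18484 with a probe in the whole data set. The 3 members not measured were Nr4a1, a nuclear receptor of the early response, Ier5, an early response gene, and Dnaja1, an Hsp40 co-chaperone. Of the early response, 22 of 24 genes were measured, and of the chaperones 9 of 10.

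The groups were 6 arrays of Terc-/- cells and 6 arrays of WT cells, all on Illumina bead arrays. Terc encodes the RNA template of telomerase, and the label G3 marks the third generation of Terc-/- mice. Lin-, kit+, sca1+ (LKS) marrow cells of either genotype expressed MLL-AF9, a fusion oncogene of acute myeloid leukaemia, with gfp, and 10000 of them were injected into C57BL/6J recipients aged 6 to 8 weeks that had been irradiated with 5.5 Gy. When leukaemia appeared in a recipient, gfp+, lin-, kit+, Fcgr+ cells were sorted from its marrow. Both genotypes therefore share MLL-AF9, the strain, the irradiation and the sort. Terc-/- arrays carry a phosphorylation label besides, which is p-p53 (Ser15) on replicates 2, 3 and 6, p-Foxo3a (Ser253) on replicates 1 and 4, and not given on replicate 5. Whether samples came from different animals is not on the labels, and a p-value here refers to the scatter among the samples at hand, which may be technical.

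Arrays of Terc-/- replicates 2 and 6 were nearly identical, as were those of WT replicates 5 and 6 (r of at least 0.996, against at most 0.990 for other pairs). Each pair was averaged and counted as 1 sample, called here the averaged Terc-/- sample and the averaged WT sample. This left 5 Terc-/- samples (2 p-p53, 2 p-Foxo3a and 1 without a label) and 5 WT samples. The largest difference of any measured member within a pair was 0.24 for Terc-/- (Klf4) and 0.41 for WT (Rhob). Both averaged samples stand apart from the rest of their own genotype in the early response, so results are given with and without them. Values are log2 units of the deposited signal, whose background limit was 6.57, and each array had 19248 to 19431 probes above it. Of 9 genes listed for leukaemia stem cells, 8 were measured (Kit, Cd34, Fcgr2b, Hoxa9, Hoxa10, Meis1, Myb and Cebpa) and Flt3 was not above background. Only Kit and Fcgr2b among them relate to the sort. The summed signal of the 8 was 18904 to 21327 in Terc-/- samples and 16947 to 20624 in WT samples.

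Immediate early genes are transcribed within minutes of a stimulus without new protein synthesis, through factors such as serum response factor and CREB that are already present in the cell. Their products include the AP-1 subunits (Fos and Jun families, Atf3), the Egr zinc finger factors, Klf factors, and proteins that end the response, such as the RNA decay factor Zfp36 and the MAP kinase phosphatases Dusp1, Dusp2 and Dusp6. Heat shock genes are driven by Hsf1 when unfolded proteins accumulate, and encode the Hsp70, Hsp90, Hsp40, small Hsp and mitochondrial chaperonin families. Both programs are also known to switch on while cells are dissociated, warmed or sorted. The labels give no time, temperature or duration of handling, so its part in the values was not tested.

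Promoter sequences of both classes were searched for short motifs around their start sites. RefSeq windows of GRCm38.p6 ran from 250 bases before to 50 bases after the start. They were searched for 28 of the 34 genes, 20 of the early response and 8 chaperones. Egr1, Egr3, Ier2, Zfp36l2, Hspa8 and Hsp90aa1 were not searched, so their motifs are not known here. In 7 of the 8 chaperone genes a window held a pair of inverted heat shock units (GAANNTTC or TTCNNGAA), against 3 of 20 early response genes (Egr2, Fosl2 and Jun) and 17.0% of all genes in the table (15.1% of all windows). The 7 are not all separate promoters, since Hspd1 and Hspe1 share their sites in overlapping windows. Hspa1a and Hspa1b are near-identical copies with the same site. The loose pattern TGANNTCA, which includes the CREB and ATF site but also other letters, lay in 6 of 20 early response genes and in 0 of 8 chaperone genes. It lay in 15.9% of all genes (14.1% of windows). The letters were TGACGTCA in Dusp1, TGACATCA in Jun and Klf6, TGAACTCA in Egr2, TGAAATCA in Jund, and TGAGCTCA in Rhob and again Jun. A CArG box, the site of serum response factor, lay in 2 of the 20 early response genes searched (Egr2 and Zfp36) and in 0 of 8 chaperone genes. It lay in 1.81% of all genes (1.63% of windows). Of the other motifs searched, the AP-1 site TGANTCA lay in 1 of 20 and 0 of 8 (8.97% of genes, 7.81% of windows), TATAAA in 3 of 20 and 0 of 8 (9.77% of genes, 8.32% of windows), and CCAAT in 10 of 20 and 6 of 8 (41.1% of genes, 37.4% of windows). Both strands were searched except for TATAAA, which was searched on the gene's own strand, and genes with several windows count once.

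The 250 bases before the start are shown for 4 early response genes whose signals ran together over the samples and for 3 chaperone genes with heat shock units. Capitals mark the TGANNTCA site in Jun and Dusp1, the CArG box in Zfp36, TATAAA in Fos and the heat shock units in Hspa1a, Hspa1b and Hspe1. The Jun stretch also holds a pair of heat shock units, GAATCTTC, which is left in lower case.
Jun (GRCm38.p6, chr4:95052223-95052472, minus strand): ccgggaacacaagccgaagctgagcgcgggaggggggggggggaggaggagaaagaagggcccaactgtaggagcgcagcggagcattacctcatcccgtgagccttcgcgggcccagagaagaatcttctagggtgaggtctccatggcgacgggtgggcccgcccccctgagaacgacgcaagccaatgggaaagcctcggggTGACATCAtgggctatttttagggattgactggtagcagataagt
Dusp1 (GRCm38.p6, chr17:26508473-26508722, minus strand): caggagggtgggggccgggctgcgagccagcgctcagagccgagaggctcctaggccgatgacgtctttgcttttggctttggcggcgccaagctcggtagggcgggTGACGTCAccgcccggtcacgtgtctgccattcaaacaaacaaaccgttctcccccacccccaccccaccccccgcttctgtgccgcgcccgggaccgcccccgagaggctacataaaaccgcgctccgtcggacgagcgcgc
Zfp36 (GRCm38.p6, chr7:28379229-28379478, minus strand): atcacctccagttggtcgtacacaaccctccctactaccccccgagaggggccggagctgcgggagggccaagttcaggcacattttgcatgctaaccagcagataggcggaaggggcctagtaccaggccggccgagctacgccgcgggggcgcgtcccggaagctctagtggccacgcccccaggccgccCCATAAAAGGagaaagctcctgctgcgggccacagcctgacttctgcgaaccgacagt
Fos (GRCm38.p6, chr12:85473640-85473889, plus strand): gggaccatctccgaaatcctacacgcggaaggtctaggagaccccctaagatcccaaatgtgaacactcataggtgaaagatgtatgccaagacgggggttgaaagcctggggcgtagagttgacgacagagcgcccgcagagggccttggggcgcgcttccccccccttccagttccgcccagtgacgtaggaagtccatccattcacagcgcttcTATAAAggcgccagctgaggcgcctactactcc
Hspa1a (GRCm38.p6, chr17:34972157-34972406, minus strand): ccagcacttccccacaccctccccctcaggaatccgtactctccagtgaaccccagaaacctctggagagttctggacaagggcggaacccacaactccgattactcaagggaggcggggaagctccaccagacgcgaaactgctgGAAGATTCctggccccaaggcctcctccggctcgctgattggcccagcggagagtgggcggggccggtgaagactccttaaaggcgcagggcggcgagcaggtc
Hspa1b (GRCm38.p6, chr17:34959239-34959488, minus strand): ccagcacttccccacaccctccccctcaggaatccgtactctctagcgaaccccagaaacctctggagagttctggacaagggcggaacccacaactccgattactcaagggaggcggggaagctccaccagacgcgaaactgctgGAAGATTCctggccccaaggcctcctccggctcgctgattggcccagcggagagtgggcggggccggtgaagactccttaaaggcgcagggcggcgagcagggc
Hspe1 (GRCm38.p6, chr1:55087898-55088147, plus strand): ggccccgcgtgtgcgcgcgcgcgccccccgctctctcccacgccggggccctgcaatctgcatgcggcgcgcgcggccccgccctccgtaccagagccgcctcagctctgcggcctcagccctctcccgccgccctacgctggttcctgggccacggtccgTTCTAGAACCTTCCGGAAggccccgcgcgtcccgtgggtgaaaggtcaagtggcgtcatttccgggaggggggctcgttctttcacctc
In Hspe1 the capitals hold 3 overlapping pairs of units that share letters. The Hspe1 window overlaps a window of Hspd1 on the opposite strand, and these genes, which encode the co-chaperonin and chaperonin of mitochondria, start head to head. The Hspa1a and Hspa1b stretches are identical at 247 of 250 bases (98.8%). Their transcripts are near-identical too, so a probe of one may also read the other, and their values are given as uncertain between the copies.

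The early response varied mainly between samples of the same genotype. Over the 10 samples the 22 early response genes had a median SD of 0.67, against 0.28 for the 9 chaperones and 0.20 for all 11889 genes. An SD over 1 was found for 8 early response genes (Zfp36l1, Fosb, Klf2, Egr1, Fos, Dusp1, Dusp6 and Jun) and for 1 chaperone, Hspa1a, against 1.50% of all genes. Genotype accounted for a median of 6.69% of the variance of an early response gene, 1.90% of that of a chaperone and 8.08% over all genes. Without both averaged samples the median SD was 0.43, 0.30 and 0.20 in the same order, and 3 early response genes and 1 chaperone kept an SD over 1 (1.45% of all genes).

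**Figure D1:**
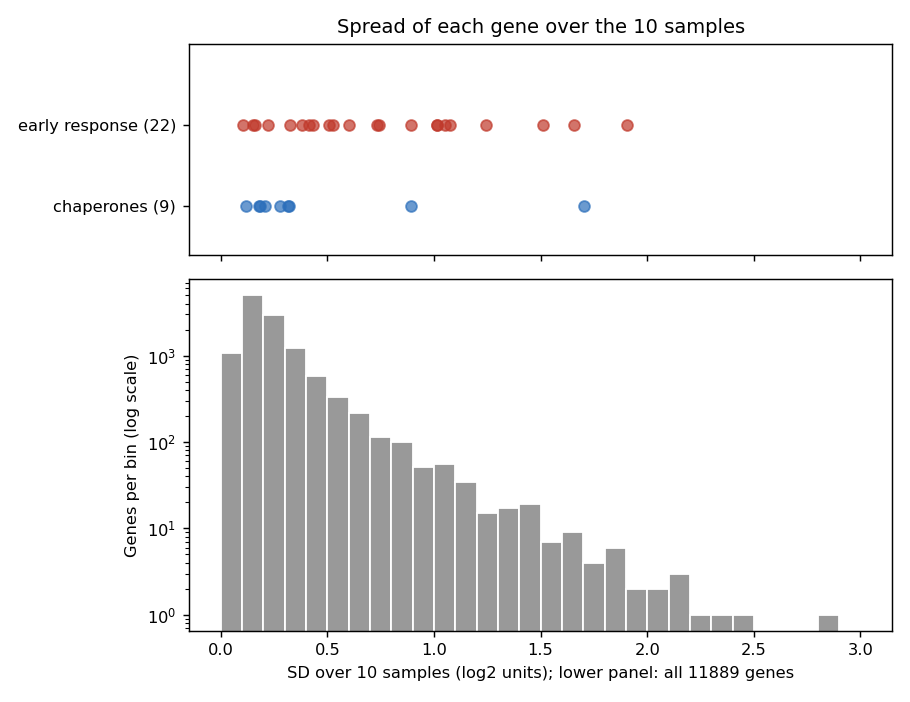
SD of each gene over the 10 samples in log2 units, for the early response genes and chaperones (upper panel, 1 point a gene) and for all 11889 genes (lower panel, genes per bin of SD on a log scale). Early response genes have a median SD of 0.67 and reach 1.90 (Zfp36l1), while most chaperones lie near the bulk of genes, with Hspa1a at 1.70.

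Both averaged samples held the low end of the early response. Fos, the founding AP-1 subunit, had log2 signals of 13.95, 10.80, 12.95, 13.02 and 12.46 in Terc-/- replicate 1, the averaged Terc-/- sample and replicates 3, 4 and 5, against 13.54, 12.49, 13.62, 12.07 and 10.92 in WT replicates 1, 2, 3 and 4 and the averaged WT sample. The lowest value of each genotype thus belongs to its averaged sample, and the groups overlap fully. Fos was 4.93-fold lower in the averaged Terc-/- sample than in the mean of the other Terc-/- samples, and 4.01-fold lower in the averaged WT sample than in the other WT samples. Of the 22 early response genes, 15 were lowest of their genotype in the averaged Terc-/- sample (19.0% of all genes), 15 in the averaged WT sample (12.6% of all genes), and 12 in both (2.43% of all genes). The 12 were Fos, Fosb, Jun, Jund, Atf3, Klf2, Klf6, Zfp36, Dusp1, Dusp6, Ier3 and Rhob. These samples were singled out after their values were seen, so these counts are a description.

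**Figure D2:**
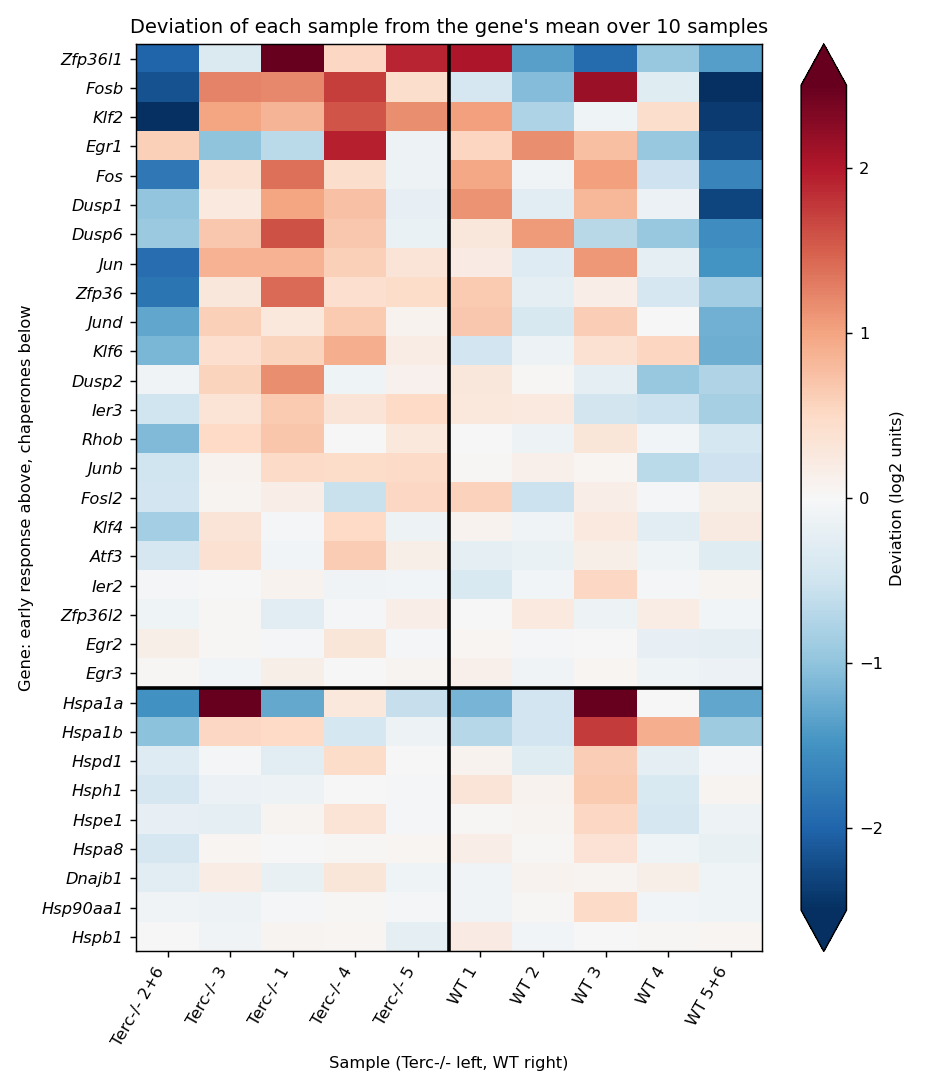
Deviation of each sample from the gene's mean over 10 samples (log2 units, colour scale ending at 2.5 in either direction), with Terc-/- samples left of the vertical line and WT samples right of it, early response genes above the horizontal line and chaperones below. Blue columns for the averaged Terc-/- sample (2+6) and the averaged WT sample (5+6) stand at opposite ends, with median deviations of -0.89 and -0.85 over the early response genes.

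Other AP-1 subunits followed Fos to different degrees. Fosb, a partner of Jun proteins, had 11.60, 8.23, 11.65, 12.13 and 10.84 in Terc-/- replicate 1, the averaged sample and replicates 3, 4 and 5, against 9.99, 9.31, 12.56, 10.10 and 7.62 in WT replicates 1 to 4 and the averaged sample. Jun, the main partner of Fos, had 9.34, 6.57, 9.35, 9.08 and 8.79 in the same order in Terc-/- samples, against 8.68, 8.14, 9.56, 8.23 and 6.97 in WT samples. The Jun value of the averaged Terc-/- sample was not above the background limit, and both genes were lowest in the averaged sample of each genotype. Fosb was 10.01-fold and 7.32-fold lower there than in the other samples of Terc-/- and WT. Jun was at least 5.93-fold lower in Terc-/-, with the averaged value set to the background limit, and 3.21-fold lower in WT. Jund, a subunit often described as constitutively made, was 3.27-fold and 2.67-fold lower. Junb, which can oppose Jun, varied less, with 10.62, 9.64, 10.21, 10.59 and 10.61 in Terc-/- samples against 10.15, 10.26, 10.17, 9.45 and 9.60 in WT samples. Its lowest WT value lay in replicate 4 and not in the averaged sample. Fosl2 ran between 8.76 and 9.84 in Terc-/- samples and 8.78 and 9.90 in WT samples, and Atf3, a stress-induced subunit, lay near background at 6.26 to 7.31 and 6.38 to 6.84.

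Klf2, a quiescence factor of lymphocytes and endothelium, had the widest gap in Terc-/- samples. It had 13.02, 9.43, 13.16, 13.75 and 13.33 in Terc-/- replicate 1, the averaged sample and replicates 3, 4 and 5, against 13.21, 11.41, 12.07, 12.62 and 9.80 in WT replicates 1 to 4 and the averaged sample. The averaged Terc-/- sample was 14.8-fold below the mean of the other Terc-/- samples. Klf6, a related zinc finger factor, was 3.16-fold and 2.47-fold lower in the averaged Terc-/- and WT samples than in the others of their genotype. Klf4 ran from 6.36 to 7.70 in Terc-/- samples and from 6.93 to 7.45 in WT samples, with the averaged WT sample not low.

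Egr1, a zinc finger factor usually induced together with Fos, did not share this order. It had 9.64, 10.92, 9.32, 12.27 and 10.20 in Terc-/- replicate 1, the averaged sample and replicates 3, 4 and 5, against 10.85, 11.49, 11.08, 9.38 and 8.05 in WT replicates 1 to 4 and the averaged sample. The averaged WT sample was again the lowest of its genotype, but the averaged Terc-/- sample was the second highest of its own, and replicate 1, which had the highest Fos signal, was low. Egr2 (6.78 to 7.13 in Terc-/- and 6.61 to 6.88 in WT samples) and Egr3 (6.70 to 6.92 and 6.62 to 6.89) stayed close to the background limit. A dimmer kept probe of Egr3 gave 7.48 in Terc-/- replicate 4 and 6.21 to 6.80 in the other samples.

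Of the genes that shut the response down, Dusp1 and Zfp36 kept much the same order as Fos. Dusp1, a phosphatase that inactivates MAP kinases, had 13.30, 11.33, 12.56, 13.06 and 12.12 in Terc-/- replicate 1, the averaged sample and replicates 3, 4 and 5, against 13.43, 12.04, 13.14, 12.18 and 10.02 in WT replicates 1 to 4 and the averaged sample. Zfp36, which destabilises mRNAs with AU-rich elements, had 13.94, 10.72, 12.81, 12.96 and 12.99 in Terc-/- samples, against 13.18, 12.29, 12.69, 12.11 and 11.68 in WT samples. Both were lowest in the averaged sample of each genotype. Dusp6, a phosphatase specific for Erk, ran from 9.66 to 12.17 in Terc-/- samples and from 9.02 to 11.64 in WT samples, with the averaged samples lowest. Dusp2 ran from 11.24 to 12.51 and from 10.41 to 11.63, with other samples lowest. Ier3, an early gene of cell survival, and Rhob, a small GTPase, were lowest in both averaged samples (1.93-fold and 1.64-fold for Ier3, 2.78-fold and 1.38-fold for Rhob, in Terc-/- and WT). Ier2 (6.86 to 7.04 and 6.58 to 7.48) and Zfp36l2 (6.51 to 6.96 and 6.65 to 7.03) lay near background and showed no such pattern.

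Zfp36l1, a relative of Zfp36, had the widest spread of all members and an order of its own. It had 12.30, 6.80, 8.44, 9.31 and 10.70 in Terc-/- replicate 1, the averaged sample and replicates 3, 4 and 5, against 10.81, 7.44, 6.88, 7.85 and 7.42 in WT replicates 1 to 4 and the averaged sample. Replicate 1 of WT stood well above its other WT samples, and in Terc-/- samples the signal was spread over the whole range. A dimmer probe of the gene gave 10.24 in Terc-/- replicate 1 and 6.37 in the averaged Terc-/- sample.

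**Figure D3:**
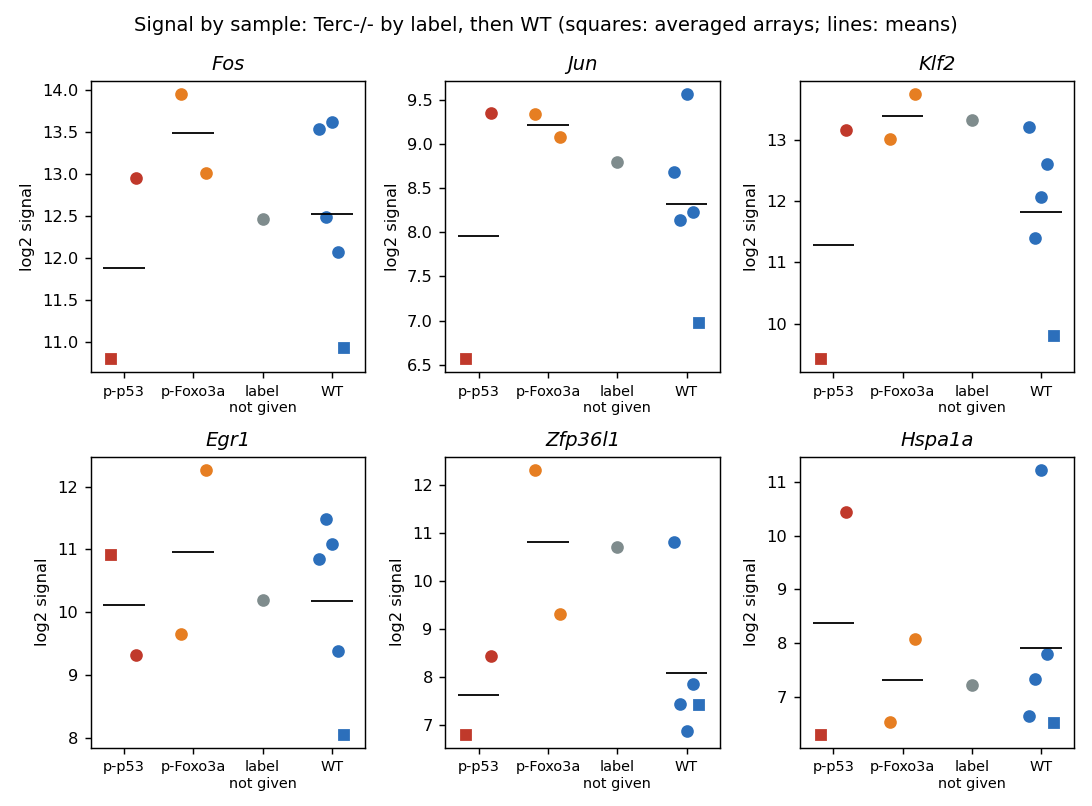
log2 signal of Fos, Jun, Klf2, Egr1, Zfp36l1 and Hspa1a in each sample, with Terc-/- samples by phosphorylation label left of WT samples, squares for averaged arrays and lines for means of groups with over 1 sample. The squares are lowest for Fos, Jun and Klf2 in p-p53 and in WT samples (Fos 10.80 and 10.92), while the Egr1 square is high in p-p53 (10.92) and low in WT (8.05).

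Relations with Fos were computed over the 10 samples for 12 measured members, with permutation tests (100000 permutations, two-sided) and Benjamini-Hochberg adjustment over the 12. Dusp1 gave r = 0.92 (permutation p = 0.00013, adjusted 0.00078; rho = 0.90, adjusted permutation p = 0.00924), Zfp36 r = 0.91 (permutation p = 0.00012, adjusted 0.00078; rho = 0.79, adjusted 0.035) and Jun r = 0.93 (permutation p = 0.00051, adjusted 0.00204; rho = 0.81, adjusted 0.035). Without the 2 samples farthest from the Fos median, which are the averaged ones, r over the other 8 was 0.91 for Dusp1 (exact permutation p = 0.00384), 0.79 for Zfp36 (0.0171) and 0.73 for Jun (0.0446). After the same adjustment over 12 relations Dusp1 passed (exact permutation, adjusted p = 0.0461) and Zfp36 (0.103) and Jun (0.178) did not. Hspa8 (r = 0.83, adjusted permutation p = 0.00621), Junb (0.71, 0.0453) and Klf6 (0.71, 0.0453) fell to r = 0.57, 0.46 and -0.03 without these samples (exact permutation p = 0.137, 0.263 and 0.946), and their rho did not pass (adjusted permutation p = 0.14, 0.21 and 0.21). These relations were thus not established without the averaged samples. Leaving out the samples farthest in Fos narrows its range, which can itself lower r, and 8 samples give little power. Egr1 (r = 0.33, rho = 0.27), Ier2 (0.10, 0.15), Hspa1a (0.41, 0.43), Hspa1b (0.55, 0.49), Dnajb1 (0.31, 0.21) and Hsp90aa1 (0.43, 0.52) did not pass, with adjusted permutation p of 0.18 or more for r. Each genotype alone holds 5 samples, too few for a correlation of its own.

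Chaperones split into a wide set, Hspa1a and Hspa1b, and a narrower one. Hspa1a, the stress-induced Hsp70, had 6.53, 6.30, 10.43, 8.07 and 7.22 in Terc-/- replicate 1, the averaged sample and replicates 3, 4 and 5, against 6.65, 7.33, 11.22, 7.79 and 6.51 in WT replicates 1 to 4 and the averaged sample. Its copy Hspa1b had 7.97, 6.45, 7.99, 7.03 and 7.34 in Terc-/- samples, against 6.77, 7.0, 9.22, 8.38 and 6.58 in WT samples. Replicate 3 was the highest sample of either genotype for both genes, and both averaged samples were lowest. For Hspa1a, 3 of 5 Terc-/- and 4 of 5 WT samples were above background, with the averaged samples among those that were not. The dimmer Hspa1a probe that passed the filter gave 6.68 in Terc-/- replicate 3 and 7.63 in WT replicate 3, and 6.40 and 6.37 in the averaged Terc-/- and WT samples.

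The other 7 chaperones varied less than Hspa1a and Hspa1b. Hspa8, the constitutive Hsp70, ran from 14.29 to 14.76 in Terc-/- samples and from 14.53 to 15.07 in WT samples. Hsp90aa1, the inducible cytosolic Hsp90, ran from 10.97 to 11.14 and from 10.99 to 11.58, and Hsph1, the Hsp110 exchange factor of Hsp70, from 8.70 to 9.11 and from 8.73 to 9.77. Of the chaperonin pair, Hspd1 ran from 12.21 to 13.01 and from 12.24 to 13.15. Hspe1 ran from 9.91 to 10.47 and from 9.70 to 10.65. Dnajb1, an Hsp40 partner of Hsp70, ran from 12.11 to 12.70 and from 12.29 to 12.55. SDs over the 10 samples were 0.32 for Hspd1 and Hsph1, 0.28 for Hspe1 and 0.12 to 0.21 for the others. The median SD of all genes was 0.20. These values are of the brightest probe, and some dimmer kept probes ran wider. A dimmer Hspa8 probe ran from 12.88 to 13.77 in Terc-/- and from 12.85 to 14.28 in WT samples. For Hspd1 a dimmer probe ran from 9.44 to 10.24 and from 9.24 to 10.77. Hspb1, a small heat shock protein, stayed at 6.29 to 6.61 and 6.47 to 6.74 and was above background in 2 of 5 samples of either genotype. In WT samples, 7 of the 9 chaperones were highest in replicate 3, as were 21.9% of all genes. The same replicate was highest of WT for 4 of 13 other heat shock chaperones, 6 of 8 subunits of the cytosolic chaperonin TRiC, 7 of 16 co-chaperones and heat shock factors and 6 of 10 chaperones of the endoplasmic reticulum.

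**Figure D4:**
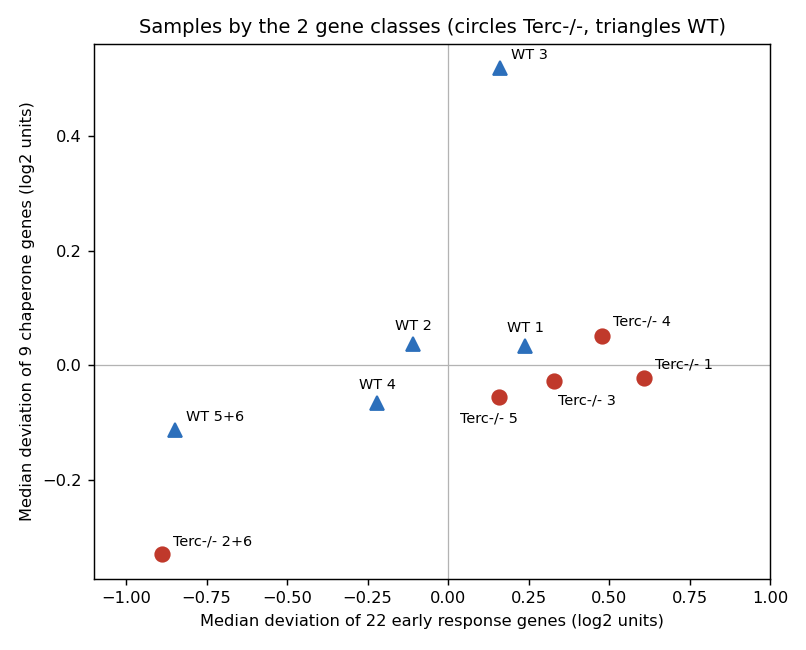
Median deviation of each sample from the genes' means in log2 units, over the 22 early response genes (horizontal) and the 9 chaperones (vertical), with circles for Terc-/- and triangles for WT samples. The averaged Terc-/- sample (-0.89 and -0.33) and the averaged WT sample (-0.85 and -0.11) lie far left, and WT replicate 3 lies alone at the top (0.16 and 0.52).

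Summed up by sample, median deviations of the early response were 0.61, -0.89, 0.33, 0.48 and 0.16 in Terc-/- replicate 1, the averaged sample and replicates 3, 4 and 5, against 0.24, -0.11, 0.16, -0.22 and -0.85 in WT replicates 1 to 4 and the averaged sample. Those of the chaperones were -0.02, -0.33, -0.03, 0.05 and -0.06 in Terc-/- samples, against 0.03, 0.04, 0.52, -0.07 and -0.11 in WT samples. Over all genes the same medians lay between -0.04 and 0.02, which the matched array medians of the deposited values largely fix. In sorted bulk cells, fewer cells of a type and less RNA per cell cannot be told apart.

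Between genotypes no member passed the test. Of the 22 early response genes, 18 had a higher mean in Terc-/- samples, with a median difference of 0.30, and all 9 chaperones a lower mean, with a median of -0.10, against 46.0% of all genes higher and a median of -0.01. None of the 31 reached an adjusted p under 0.05 in limma with Benjamini-Hochberg adjustment, as did 0% of 11889 genes. None had an unadjusted p under 0.05 (7.43% of genes) or groups that did not overlap (1.19% of genes). The member of smallest p was Dusp2, which averaged 11.68 ± 0.54 in Terc-/- and 11.03 ± 0.51 in WT samples (SD, n = 5 each), a difference of 0.65 ± 0.29 (SE, limma adjusted p = 0.667). Ier3 differed by 0.53 ± 0.27 (adjusted p = 0.676 in limma) and Junb by 0.41 ± 0.23 (0.688).

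The members of widest spread left the genotype difference poorly fixed. Fos averaged 12.64 ± 1.16 in Terc-/- and 12.53 ± 1.12 in WT samples (SD, n = 5 each), and its difference of 0.11 had a 95% interval from -1.28 to 1.50. The intervals ran from -0.99 to 1.61 for Jun, from -1.30 to 1.90 for Egr1 and from -2.39 to 2.01 for Hspa1a. Narrow intervals were found for chaperones of small spread on their brightest probe, from -0.39 to 0.18 for Hspa8 and from -0.35 to 0.15 for Hsp90aa1. Dimmer kept probes differed by -0.10 and -0.33 for Hspa8 and by 0.05 for Hsp90aa1. The chaperone of smallest p was Hsph1, at 8.96 ± 0.16 in Terc-/- and 9.26 ± 0.38 in WT samples (SD, n = 5 each), a difference of -0.30 ± 0.17 (SE, limma adjusted p = 0.690).

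**Figure D5:**
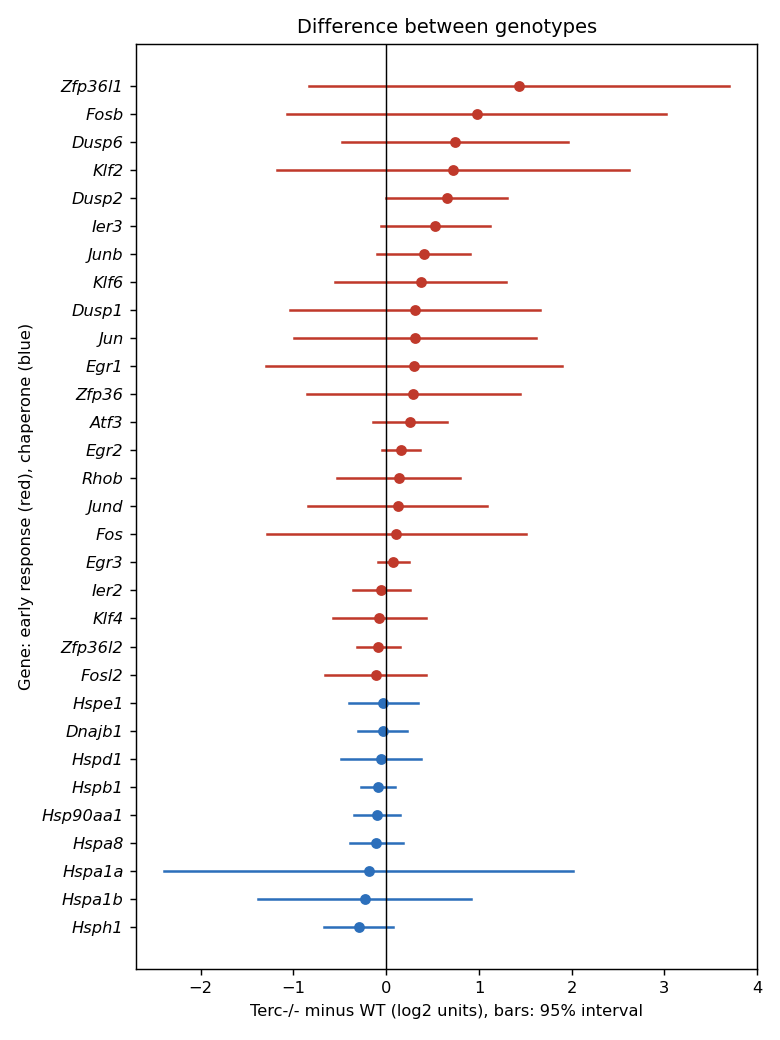
Terc-/- minus WT difference of each measured member in log2 units with its 95% interval, early response genes in red above chaperones in blue. Every interval includes 0, and point estimates of 18 of 22 early response genes lie right of it while all 9 chaperones lie left of it by at most 0.30.

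These counts depended on the averaged samples. Without both of them, at 4 against 4 samples, 19 of 22 early response genes were higher in Terc-/- samples (median 0.34), and Klf2 (0.99), Ier3 (0.58) and Junb (0.50) had an unadjusted p under 0.05, against 7.37% of all genes. None of these passed the adjustment in limma (adjusted p = 0.627, 0.632 and 0.644), and Ier3 was the one member whose groups did not overlap, against 4.00% of genes. Without the averaged Terc-/- sample alone, 8 of 22 early response genes had an unadjusted p under 0.05 (9.50% of genes) and the median was 0.57. Without the averaged WT sample alone, 0 of 22 did (5.74% of genes) and the median was 0.08. Without WT replicate 1, 3 of the 22 did (9.0% of genes), without WT replicate 2, 2 did (4.85%), and without Terc-/- replicate 4, 1 did (8.51%).

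The p-p53 samples differed widely from each other. Replicate 3 exceeded the averaged Terc-/- sample in Fos by 2.16, in Fosb by 3.42 and in Klf2 by 3.73, and in Jun by at least 2.78 and in Hspa1a by at least 3.86, since the averaged values of these genes were not above the limit. In Egr1 it lay below the averaged sample, at 9.32 and 10.92. Against WT, 7 of 22 early response genes had a higher mean in p-p53 samples (median -0.12) and 1 of 9 chaperones did (median -0.21), against 47.0% of all genes. None of the 31 members passed in limma at an adjusted p under 0.05 (0% of genes), and none had an unadjusted p under 0.05 (2.62% of genes) or groups that did not overlap (8.34% of genes). The smallest p was that of Hsph1 (-0.43 ± 0.24, SE, limma adjusted p of 1). With replicate 3 as the single p-p53 sample the early response median was 0.42, and with the averaged sample alone it was -0.69.

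The p-Foxo3a samples had the highest early response signals. In 9 of the 22 genes the highest of the 10 samples was Terc-/- replicate 1 and in 6 it was replicate 4, and these are the samples with the p-Foxo3a label. Over all genes these samples were highest in 16.6% and 9.50%. Replicate 1 stood apart over the whole array, with a median r of 0.963 with the other arrays against 0.976 to 0.984 for the rest, and 19.9% of all genes were lowest in it. Against WT, 19 of 22 early response genes had a higher mean (median 0.77) and 4 of 9 chaperones did (median -0.04), against 46.9% of all genes. Junb averaged 10.60 in p-Foxo3a samples and 9.93 in WT samples, a difference of 0.68 ± 0.26 (SE, limma adjusted p = 0.491, unadjusted p under 0.05). Zfp36l1 averaged 10.81 and 8.08, a difference of 2.73 ± 1.14 (SE, limma adjusted p = 0.509, unadjusted p under 0.05). These 2 were the members with an unadjusted p under 0.05 (9.77% of genes), and 0 passed in limma after adjustment (0% of genes). Junb, Ier3 (11.04 against 10.28, difference 0.75 ± 0.35, SE) and Klf6 (13.13 against 12.21, difference 0.92 ± 0.53) were higher in both p-Foxo3a samples than in any WT sample, and 12.5% of genes had groups that did not overlap. The gap was small for Klf6 (12.96 against 12.94) and Ier3 (10.87 against 10.81). Terc-/- replicates 3 and 5 also exceeded every WT sample in Ier3 (10.88 and 11.05). In Junb replicate 5 did (10.61) and replicate 3 did not (10.21), and in Klf6 neither did (12.83 and 12.58 in replicates 3 and 5). Without replicate 1 the early response median was 0.62, and Atf3 and Egr2 had an unadjusted p under 0.05 in place of Junb and Zfp36l1 (5.58% of genes). Without replicate 4 it was 0.75, and Dusp2 and Zfp36l1 did (18.3% of genes). All these differences share the WT samples with the comparison of p-p53 and WT.

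Set against each other, p-p53 samples had lower means than p-Foxo3a samples in 21 of 22 early response genes (median -0.75) and 8 of 9 chaperones (median -0.20), while 51.8% of all genes were higher. Zfp36 averaged 11.76 in p-p53 and 13.45 in p-Foxo3a samples (-1.69 ± 0.69, SE, limma adjusted p = 0.942), and Zfp36l1 averaged 7.62 and 10.81 (-3.19 ± 1.36, SE, limma adjusted p = 0.942). These 2 had an unadjusted p under 0.05 and no other member did (5.13% of genes), and 0 passed in limma after adjustment (0% of genes). In 10 members, 6 early response genes and 4 chaperones, both p-p53 samples lay below both p-Foxo3a samples, and 29.6% of genes had groups that did not overlap. Without the averaged Terc-/- sample, which leaves replicate 3 as the single p-p53 sample, the early response median was -0.16 and 0 early response genes had an unadjusted p under 0.05 (4.38% of genes), and without replicate 3 it was -1.27 and 11 of 22 did (6.98% of genes). With 2 samples a label, the label and the sample cannot be told apart.

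Other immediate and delayed early genes, a list of 40 of which 36 were measured, were often lowest in the same samples. Of the 36, 16 were lowest of their genotype in the averaged Terc-/- sample (19.0% of all genes), 17 in the averaged WT sample (12.6%) and 9 in both (2.43%), among them the NF-kB regulator Nfkbiz, the phosphatase regulator Ppp1r15a and the kinase Sgk1. Dusp5, a nuclear phosphatase of Erk, had 10.93, 6.80, 9.40, 9.76 and 9.91 in Terc-/- replicate 1, the averaged sample and replicates 3, 4 and 5, against 9.72, 7.98, 6.97, 8.16 and 7.25 in WT replicates 1 to 4 and the averaged sample. Between genotypes 23 of the 36 had a higher mean in Terc-/- samples (median 0.06), 5 were higher and 1 lower at an unadjusted p under 0.05 (7.43% of all genes in either direction), and 0 passed in limma after adjustment. Klf9, a glucocorticoid-induced factor, averaged 10.68 in Terc-/- and 9.42 in WT samples (1.26 ± 0.33, SE, limma adjusted p = 0.588) and its groups did not overlap, as in 1.19% of all genes. Per1, a clock gene that is also induced early, averaged 10.19 and 9.28 (0.91 ± 0.24, limma adjusted p = 0.588). Kinases and factors that signal to early genes had a median difference of -0.01, with 8 of 18 higher and 0 at an unadjusted p under 0.05.

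Further chaperones differed little between genotypes. Of the other heat shock chaperones 5 of 13 were higher in Terc-/- samples (median -0.04), of TRiC subunits 1 of 8 (-0.14), of co-chaperones and heat shock factors 7 of 16 (-0.06) and of endoplasmic reticulum chaperones 3 of 10 (-0.09), against 46.0% of all genes, and 0 passed in limma after adjustment. At an unadjusted p under 0.05, as were 7.43% of all genes, were Hspa4l (-0.31 ± 0.11, SE), Cryab (0.18 ± 0.07), Cct7 (-0.18 ± 0.07) and Creld2 (-0.50 ± 0.14), with limma adjusted p of 0.639, 0.659, 0.658 and 0.633.

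Markers of other cells varied between samples as well, and their part in these results was not tested. The summed signal of 12 measured mature neutrophil genes was 134400, 54300, 228700, 41770 and 113700 in Terc-/- replicate 1, the averaged sample and replicates 3, 4 and 5, against 103800, 165900, 125900, 207100 and 170700 in WT replicates 1 to 4 and the averaged sample. It was thus low in the averaged Terc-/- sample, lowest in replicate 4, where early response genes were high, and not low in the averaged WT sample. Sums of 10 monocyte and macrophage genes were 37104 to 60011 in Terc-/- and 38339 to 53647 in WT samples, and the averaged Terc-/- sample was the highest. Sums of 5 T and NK cell genes were 7202 to 27954 and 7836 to 15262, lowest in the averaged Terc-/- sample. Those of 5 B cell genes were 1981 to 3041 and 1562 to 2865, of 6 erythroid genes 2133 to 3571 and 1927 to 3859, of 4 megakaryocyte and platelet genes 507 to 1882 and 502 to 909, and of 8 endothelial and stromal genes 1271 to 2609 and 1062 to 2375. Among defining markers, Cd3e, Cd8a, Pax5, Alas2, Pf4 and Col1a1 were not above background, while Cd8b1 (12.23 to 13.23), Nkg7 (9.56 to 14.14), Cd79b (10.17 to 11.35) and Pecam1 (8.72 to 10.89) were far above it. Gene by gene, 11 of 12 neutrophil genes had lower means in Terc-/- than in WT samples (median -0.47, 46.0% of all genes higher). The same count was lower than WT in p-p53 samples (median -0.41, 47.0% of all genes higher). It was also 11 of 12 in p-Foxo3a samples (median -0.71, 46.9% of all genes higher). In this order 2, 0 and 2 had an unadjusted p under 0.05 in limma, against 7.43%, 2.62% and 9.77% of all genes. Cd34, a stem and progenitor cell marker, had 8.85, 7.23, 7.80, 9.06 and 8.41 in Terc-/- replicate 1, the averaged sample and replicates 3, 4 and 5, against 8.58, 7.25, 7.46, 6.94 and 7.83 in WT replicates 1 to 4 and the averaged sample. It was highest in both p-Foxo3a samples, by 1.34 ± 0.39 over WT (SE, limma adjusted p = 0.459), and differed by -1.44 ± 0.47 between p-p53 and p-Foxo3a (adjusted p = 0.942 in limma). Cd34, which is not among the stated markers of the sort, is named as the listed leukaemia stem cell gene of smallest p against WT there. Of the 8 measured genes of that list, 5 had higher and 3 lower means in p-Foxo3a than in WT samples (median 0.14). Between genotypes 4 were higher and 4 lower. The smallest p there was that of Kit, at 12.91 in Terc-/- and 12.52 in WT samples (limma adjusted p = 0.658).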

How the data were processed

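Sorted leukaemia cells were measured on 12 Illumina bead arrays (6 Terc-/-, 6 WT). The deposited values are log2 signals made by the authors with GenomeStudio, per the submitters' processing notes. No source used here gives its version or the normalization, and the log base was read from the range of the values. Array medians were 6.57 to 6.58. A further table has 24 columns whose names match no sample, and these were not used. The number of arrays limits the precision.

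The background limit of 6.57 was set from the lower side of the signal distribution (mode 6.35, SD 0.134). Of 38502 probes, 21914 above it on at least 3 of 12 arrays were kept, and the brightest kept probe stood for each of 11889 genes. The platform annotation gave 1 gene for 32034 probes and several for 16, and did not list 6452. Tests were limma 3.58.1 (R 4.3.3) with Benjamini-Hochberg adjustment over all genes, in a fit of 5 Terc-/- and 5 WT samples and a fit of 9 samples with the p-p53, p-Foxo3a and WT groups. Groups overlap unless every sample of one exceeds every sample of the other. The fit was tested on simulated data. Same-numbered Terc-/- and WT arrays did not deviate together over all genes (r of -0.217 to 0.147 over 6 numbers). Named genes are all measured members, and in each further list those of smallest p, with others named after their values were seen. Members and lists were chosen with earlier results of these data known. Alternatives are given in the closing section.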

Additional observations from a re-analysis of the deposited data

Results flagged for a closer look

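Of 62 groups of 5 samples (31 genes in either genotype), 7 held a sample farther from the others than Dixon's 95% criterion allows (0.71 of the group's range). Chance flags about 1 in 20 groups, or 3.1 of 62. In the averaged Terc-/- sample Jun (6.57), Jund (7.07), Klf2 (9.43) and Hspa8 (14.29) were far below the other Terc-/- samples, whose nearest values were 8.79, 8.47, 13.02 and 14.71. In WT replicate 1 Zfp36l1 (10.81) was far above the other WT samples (nearest 7.85). In WT replicate 3 Hspa1a (11.22) and Hsp90aa1 (11.58) were far above the others (nearest 7.79 and 11.14). A dimmer Hsp90aa1 probe gave 8.63 in that sample, against a mean of 8.54 over all samples.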

How the results depend on the processing

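Alternatives numbered 24 to 26 a result. No member passed the adjusted threshold when any sample was left out. Leaving out the averaged samples together was chosen after seeing the data. With all 12 arrays as separate samples, the count of genes past the adjusted threshold between p-p53 and WT was 1, the median p-Foxo3a minus WT difference was 0.88 for the early response and 0.0167 for chaperones, and the value of Rhob, Terc-/- minus WT, reversed to -0.00159. With array weights these medians were 0.91 and 0.0269, and Hspa1a reversed to 0.21. Without both averaged samples the p-p53 count was 1, the early response p-Foxo3a median 0.52, and Egr1 (-0.35), Fosl2 (0.0147), Hspd1 (0.00433) and Klf4 (0.17) reversed between genotypes. The cause was not tested.

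The replicate number is not known to pair the samples, and over all genes 1 of 6 numbers correlated over 0.1. With it as a block over all 12 arrays, the p-Foxo3a minus WT medians were 0.55 (early response) and 0.0273 (chaperones), the p-p53 minus p-Foxo3a chaperone median was -0.49, and that of Rhob, Terc-/- minus WT, was -0.00159.

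Leaving out 1 replicate at a time, counts of genes past the adjusted threshold ranged from 0 to 1 (Terc-/- minus WT), 0 to 15 (p-p53 minus WT), 0 to 260 (p-Foxo3a minus WT) and 0 to 29 (p-p53 minus p-Foxo3a), and the p-Foxo3a minus WT medians from 0.52 to 0.87 (early response) and -0.0855 to 0.0622 (chaperones). Where an arm keeps 1 sample, it is assumed to vary like the other groups. Genotype differences that changed sign ranged from -0.29 to 0.57 for Fos, -0.027 to 0.82 for Jun, -0.16 to 0.47 for Jund, -0.23 to 0.63 for Egr1, -0.22 to 0.63 for Dusp1, -0.0213 to 0.79 for Zfp36, -0.0238 to 0.43 for Rhob, -0.27 to 0.014 for Fosl2, -0.21 to 0.13 for Klf4, -0.15 to 0.0729 for Ier2, -0.87 to 0.64 for Hspa1a, -0.48 to 0.17 for Hspa1b, -0.14 to 0.00791 for Hsp90aa1, -0.12 to 0.0284 for Dnajb1, -0.18 to 0.0867 for Hspd1 and -0.14 to 0.0964 for Hspe1. Values near the background limit of 6.57 carry little order.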
